A study of Lytechinus variegatus with 64 samples.

Results

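Among the 25887 genes of a read count table from the sea urchin Lytechinus variegatus, 74 carried identifiers that were not numbered loci, and these 74 rows are described here. They were taken by name alone: every row whose identifier did not begin with LOC, after lines with a merged identifier or without counts had been set aside. By prefix they fell into 3 groups: 2 mitochondrial ribosomal RNA rows (DR311_mgr01 and DR311_mgr02), 22 mitochondrial transfer RNA rows (DR311_mgt01 to DR311_mgt22) and 50 rows named by a transfer RNA symbol, such as TRNAR-UCU, which gives the amino acid letter and the anticodon. The NCBI RefSeq table of the assembly Lvar_3.0 held all 74 names with a ribosomal or transfer RNA biotype. The mitochondrial rows are written below without their shared prefix (mgr01, mgt20), mgr01 is called the longer and mgr02 the shorter ribosomal RNA from their RefSeq gene lengths, and no amino acid is given for the numbered mitochondrial transfer RNAs, which the table does not name.

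The mitochondrial genome of animals is a small circle whose genes are copied as long RNAs carrying several genes each. Transfer RNA genes sit between many of the other genes, and the long RNAs are cut at the transfer RNAs by dedicated enzymes to free the ribosomal, messenger and transfer RNAs. The 2 ribosomal RNAs build the mitochondrial ribosome, which translates subunits of the respiratory chain. Nuclear transfer RNAs are made by RNA polymerase III, are short and carry no poly(A) tail, whereas mitochondrial ribosomal and messenger RNAs of animals carry short ones. Selection for poly(A) RNA, which these libraries used, therefore does not sample the 3 groups in proportion to their amounts in the cell. In sea urchin mitochondrial genomes most transfer RNA genes stand side by side in a single run.

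The study measured wild-type adult tissues and early gonads by bulk RNA sequencing. The 64 libraries held 14 adult types with 3 or 4 libraries each (53 libraries): ovary, testis and spawned eggs; mouth, esophagus, gut and rectum of the digestive tract; lantern muscle and radial nerve; tube foot, radial canal and axial gland; and peristomial membrane and interambulacral plates of the body wall. Another 6 adult types had 1 library each: coelomic fluid, stage 1 ovary, and green, red, white and mixed color spines. The juveniles, raised in the laboratory to 4.5 months after fertilization, gave 3 libraries of sexually indeterminate gonad, 1 of juvenile ovary and 1 of juvenile testis. Adult animals came from a supplier and were dissected or spawned. Whether libraries of 1 type stem from different animals is not stated in the labels, and p-values here refer to the spread between libraries. Adult and juvenile libraries were made and sequenced by different companies, so age and provider cannot be told apart. The shallowest library held 13113913 gene counts and the deepest 59521125 (median 26099257.5). The other genes of the table are numbered loci without names, so tissue labels were not checked against marker genes. In bulk RNA, fewer cells of a type and less RNA per cell cannot be told apart.

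Nearly all counts of the 74 rows were mitochondrial. The 2 ribosomal RNA rows took 89.7% of them (18716550 counts), the 22 mitochondrial transfer RNA rows 10.2% (2128437 counts) and the 50 transfer RNA symbols 0.0597% (12445 counts). The order ribosomal RNA, mitochondrial transfer RNA, transfer RNA symbol held in 64 of 64 libraries, and so did more counts for the longer than for the shorter ribosomal RNA.

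In the RefSeq gene order of the mitochondrial circle, mgt01 follows CYTB, the gene of cytochrome b, and precedes the shorter ribosomal RNA mgr02. The rows mgt02 to mgt16 then form a run of 15 transfer RNA genes between mgr02 and ND1, a gene of respiratory complex I. Beyond it, mgt17 stands between ND1 and ND2, the longer ribosomal RNA mgr01 between ND2 and COX1, mgt18 between COX1 and ND4L, mgt19 between COX2 and ATP8, mgt20 between COX3 and ND3, and mgt21 and mgt22 between ND4 and ND5. COX genes encode subunits of cytochrome c oxidase and ATP genes subunits of the ATP synthase. None of the 13 mitochondrial protein genes was in the count table under its symbol, so their levels were not analysed here. The same held for 15 named factors of mitochondrial transcription, RNA processing and decay.

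Mitochondrial ribosomal RNA took the largest share of the adult libraries in lantern muscle, the muscle that moves the jaw apparatus, and in ovary. Shares are given as percent of all gene counts of a library. The 4 ovary libraries stood at 1.66, 1.16, 2.18 and 1.72%, with a mean of 1.68% ± 0.417 (SD, n = 4). The 4 lantern muscle libraries stood at 2.83, 1.57, 1.94 and 0.454%, with a mean of 1.70% ± 0.985 (SD, n = 4). The ovary libraries lay close together, whereas the muscle libraries spread from the highest adult value down into the range of the other tissues. The lowest type means were 0.435% ± 0.116 (SD, n = 4) in radial canal, a vessel of the water vascular system, and 0.487% ± 0.0791 (SD, n = 3) in mouth. The other 10 adult types had means from 0.625% in peristomial membrane to 0.961% in esophagus, and the means of neighbours in that order differed by less than their SDs.

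The single library of stage 1 ovary held 0.123%, the lowest share of all 64 libraries, and the adult ovary libraries all held more. The juvenile gonads stood at the other end. Indeterminate gonad held 1.37, 2.70 and 4.30% in its 3 libraries, juvenile ovary 2.19% and juvenile testis 3.52%. The lowest of these 5 lay within the range of lantern muscle, ovary, esophagus and axial gland, and the juvenile testis and indeterminate replicate 3 lay above every adult library. Counting error was small beside these differences: the 95% Wilson interval of a library's share was at most ± 0.0074 percentage points wide, and intervals here cover counting error only.

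**Figure D1:**
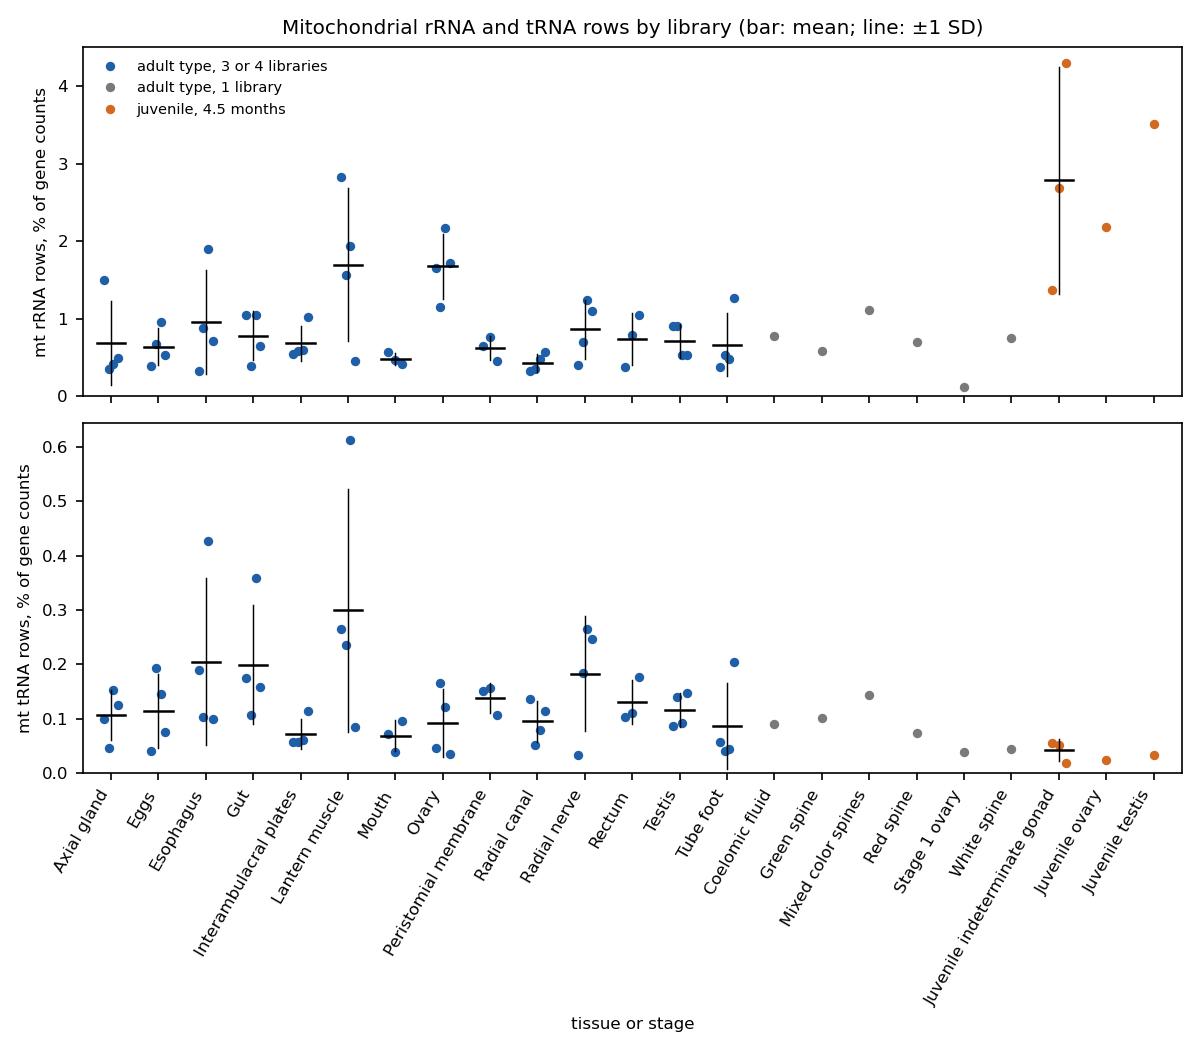
Percent of all gene counts in the 2 mitochondrial ribosomal RNA rows (upper panel) and the 22 mitochondrial transfer RNA rows (lower panel) for each library, by tissue or stage, with points for libraries, bars for means and lines for ± 1 SD. Ovary, lantern muscle and the juvenile gonads lie above 1% in ribosomal RNA in every library but 1 of lantern muscle, while the juvenile libraries lie between 0.0183 and 0.0556% in transfer RNA.

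Mitochondrial transfer RNA followed another order. The highest mean was that of lantern muscle, 0.300% ± 0.224 (SD, n = 4), with single libraries from 0.0838 to 0.613%. Esophagus followed with 0.205% ± 0.153, gut with 0.199% ± 0.110 and radial nerve with 0.182% ± 0.106 (SD, n = 4 each). These SDs overlap. Ovary, high in ribosomal RNA, held 0.0919% ± 0.0622 (SD, n = 4) and stood among the lower types. The lowest adult means were those of mouth at 0.0683% ± 0.0284 (SD, n = 3) and interambulacral plates, skeletal plates of the body wall, at 0.0715% ± 0.0280 (SD, n = 4). The juvenile libraries held 0.0183 to 0.0556%, and 2 of these 5 lay below the lowest adult library, at 0.0321%.

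The amount of mitochondrial transfer RNA per 100 counts of mitochondrial ribosomal RNA does not depend on library scaling. By type mean it was lowest in the juveniles, with 4.05, 1.94 and 0.425 in indeterminate gonad, 1.12 in juvenile ovary and 0.953 in juvenile testis. Adult ovary came next among the replicated types with 6.17 ± 5.61 (SD, n = 4). Its libraries ranged from 2.03, which is below indeterminate replicate 1, to 14.3. The other 13 adult types had means from 10.3 in interambulacral plates to 26.3 in esophagus. Stage 1 ovary stood at 30.7, above the 4 ovary libraries, and white spine at 5.76.

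The proportion of the 2 ribosomal RNAs set most juvenile libraries apart from the adult ones. The count of the longer over that of the shorter one had adult type means from 3.02 in radial canal and ovary to 7.43 in peristomial membrane, the soft skin around the mouth. Over all 59 adult libraries it ran from 2.11 to 11.7 with a median of 4.08. Adult testis had a ratio of 4.67 ± 1.53 (SD, n = 4). Juvenile testis had 14.8 and juvenile ovary 30.8. Indeterminate gonad had 52.1, 90.9 and 2.43 in its replicates 1, 2 and 3. So 4 of the 5 juvenile libraries lay above every adult library, and replicate 3 of the indeterminate gonad lay near the lowest adult values.

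The levels behind that ratio are given as CPM, a row's counts per 1000000 gene counts of the library. In indeterminate gonad the longer ribosomal RNA stood at 13485, 26662 and 30472 CPM, and the shorter one at 259, 293 and 12526 CPM. The shorter one was thus low in replicates 1 and 2 and higher than in any other library in replicate 3. Replicate 3 also had the lowest transfer RNA share of all 64 libraries, 0.0183%, and the highest ribosomal RNA share, 4.30%. In adult testis the longer one stood at 6752, 7489, 4603 and 4351 CPM and the shorter one at 2345, 1599, 696 and 962 CPM.

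**Figure D2:**
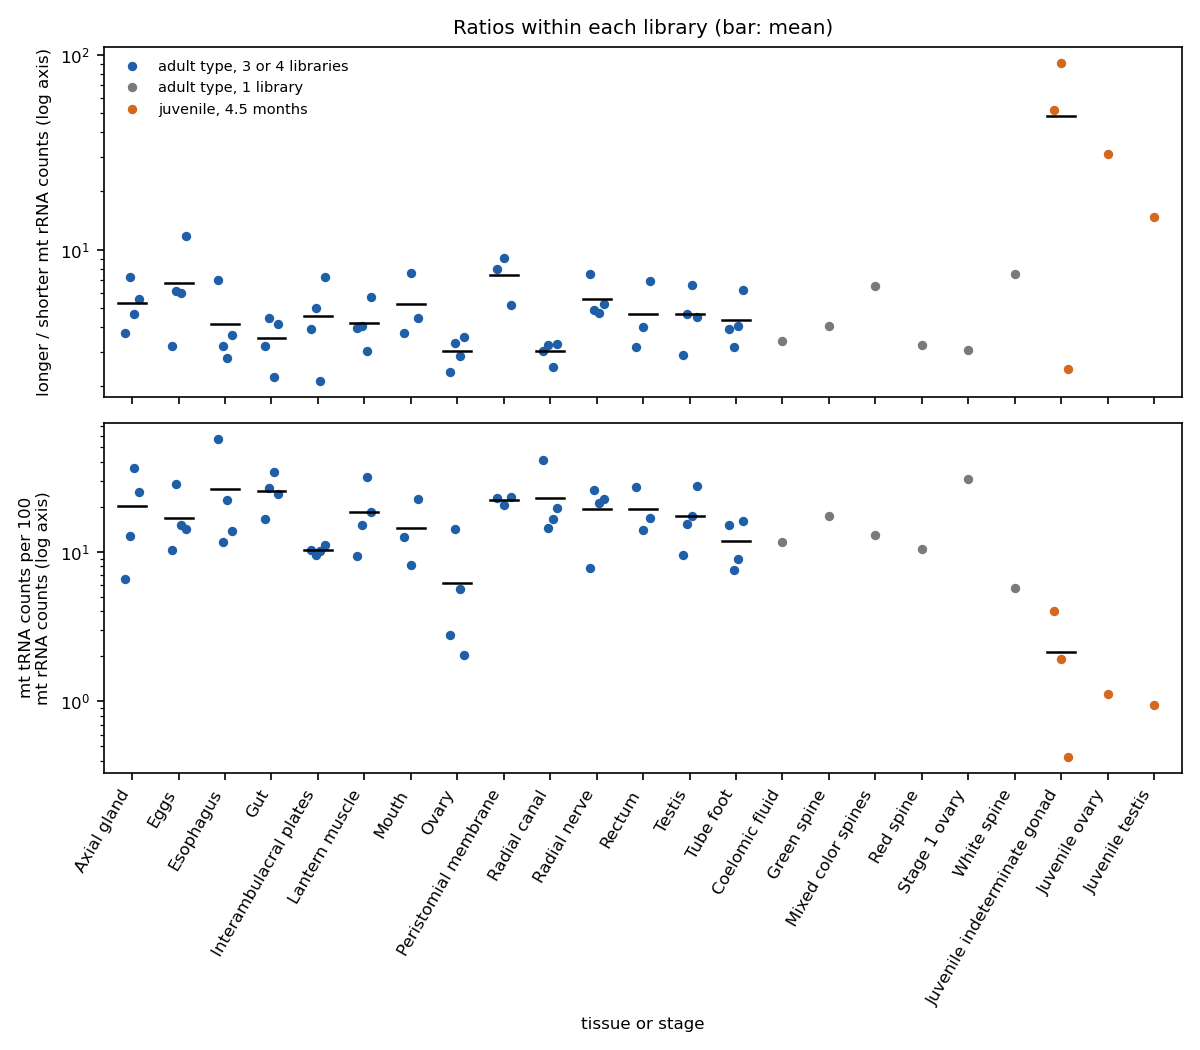
Count of the longer over the shorter mitochondrial ribosomal RNA (upper panel) and mitochondrial transfer RNA counts per 100 mitochondrial ribosomal RNA counts (lower panel) in each library, both on log axes, with points for libraries and bars for type means. Of the 5 juvenile libraries, 4 lie above all adult libraries in the upper panel, and adult ovary lies below the other replicated adult types in the mean of the lower panel.

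Among the mitochondrial transfer RNAs, mgt20 had the most counts in most libraries. It was the highest in 57 of 64 libraries, mgt18 was in 6 and mgt19 in 1. Over the 64 libraries mgt20 had a median of 414 CPM, mgt18 of 165 CPM, mgt16 of 54.0 CPM, mgt19 of 48.2 CPM and mgt15 of 40.7 CPM. The row mgt20 alone took 11.6 to 59.5% of a library's mitochondrial transfer RNA counts, with a median of 37.4%. In gene order mgt20 and mgt18 each stand alone between a gene of cytochrome c oxidase and a gene of complex I, while mgt15 and mgt16 end the run before ND1. Reads that overlap more than 1 gene may be counted differently from others, and the sources used here do not give the counting settings.

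The run of 15 adjacent rows had a shape with a dip near each end. Its type means typically fell from mgt02 to mgt03, rose to a broad crest around mgt06 to mgt08, fell to a low at mgt12 and rose again to mgt16. The row mgt03 lay below both its neighbours, mgt02 and mgt04, in 62 of 64 libraries, the exceptions being ovary replicates 1 and 4. The row mgt12 lay below both its neighbours, mgt11 and mgt13, in 55 of 64 libraries. The crest of mgt02 to mgt12 lay at mgt06, mgt07 or mgt08 in 57 of 64 libraries, and mgt16 was the highest of the whole run in 53. The run as a whole took 33.7% of mitochondrial transfer RNA counts at the median, from 12.3% in ovary replicate 2 to 64.8% in eggs replicate 4. By type, ovary had the smallest share among the replicated types, 18.3% ± 6.84 (SD, n = 4), and testis the largest among the replicated adult types, 46.2% ± 16.6 (SD, n = 4).

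**Figure D3:**
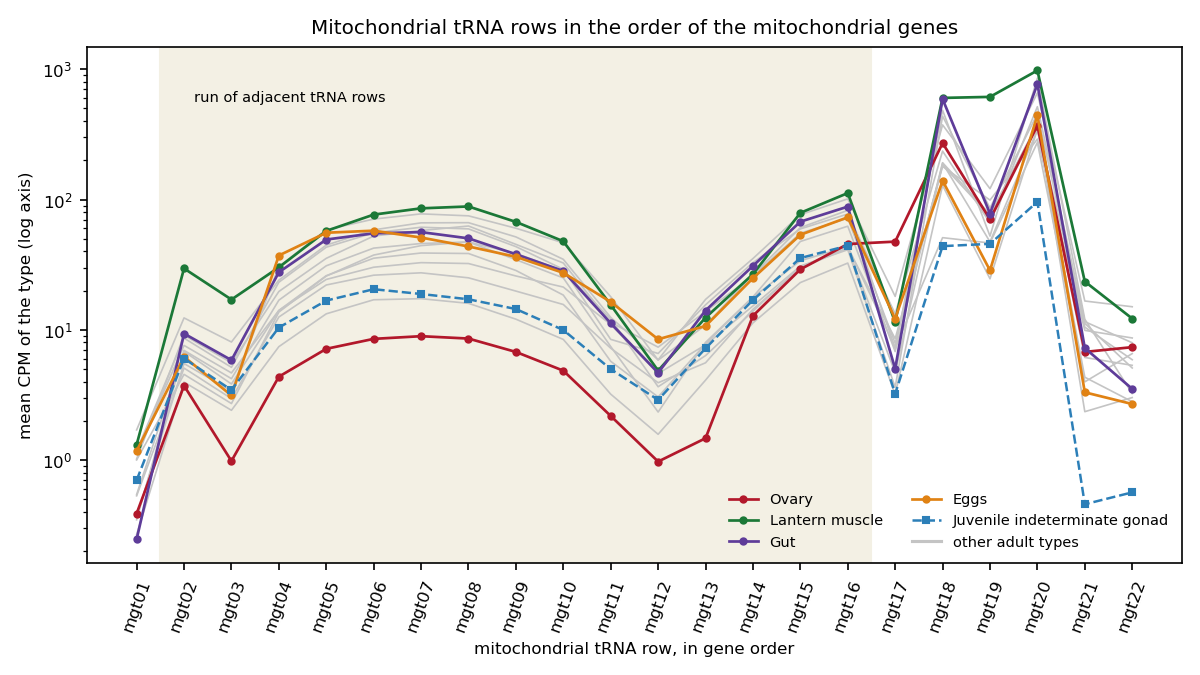
Mean CPM (log axis) of the 22 mitochondrial transfer RNA rows in RefSeq gene order, for 14 adult types and the juvenile indeterminate gonad, with the run mgt02 to mgt16 shaded. The lines of type means dip at mgt03 and mgt12, the ovary line lies lowest from mgt03 to mgt13 and highest at mgt17, and the lantern muscle line stands apart at mgt19.

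To ask which rows depend on tissue, the 53 libraries of the 14 replicated adult types were fitted together over all genes with edgeR's quasi-likelihood test, with Benjamini-Hochberg adjustment over all 23383 genes tested. Of the 74 rows, 37 passed the count filter: both ribosomal RNAs, all 22 mitochondrial transfer RNAs and 13 of 50 symbols. Of these 37, 26 differed among types at an adjusted p under 0.05, namely 2 ribosomal RNAs, 17 mitochondrial transfer RNAs and 7 symbols. Of all genes tested, 86.7% did so. The count of rows moved to 8 when replicate 2 of every type was left out, to 13 without the replicates numbered 3, and to 16 without the adult ovary. Rows below are called higher or lower in a type where the adjusted p was under 0.05 and the log2 fold change against the mean of the other 13 types was at least 1 in size.

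In ovary both ribosomal RNAs and mgt17 were higher, and a stretch of neighbouring mitochondrial transfer RNAs was lower. The 37 tested rows counted 4 higher and 17 lower, while 25.1% of all genes tested were called higher and 33.9% lower in this type. Higher and lower together, the called rows were near the share over all genes. By direction, a smaller share of rows than of all genes was higher and a larger share lower. The median log2 fold change was -2.13 for the tested rows and -1.0 for all genes. Both ribosomal RNAs rose: the shorter one by 1.76 ± 0.38 (log2 fold change ± SE, adjusted p = 9.06e-05, edgeR) and the longer one by 1.19 ± 0.36 (adjusted p = 0.00388, edgeR). In the 4 ovary libraries the shorter one stood at 4932, 2674, 5666 and 3785 CPM. Eggs, by contrast, held 946, 952, 1375 and 415 CPM, so that every ovary library lay above every egg library.

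The mitochondrial transfer RNAs split by position in ovary. All 11 neighbours from mgt03 to mgt13 fell, by log2 fold changes of -2.02 to -2.59, and mgt14, mgt15 and mgt16, next in the same run, did not pass the test. The calls of mgt11 and mgt12 were lost without ovary replicate 1, 2 or 4 and in the fit without a filter (adjusted p up to 0.0853 and 0.112, edgeR). The largest of these falls was that of mgt13, -2.59 ± 0.61 (adjusted p = 0.000299, edgeR), with 0.851, 3.41, 1.19 and 0.440 CPM in the ovary libraries. The row mgt10 held 2.36, 2.78, 13 and 1.34 CPM there, and mgt09 reached 15.8 CPM in replicate 3 against at most 4.51 CPM in the others. The lone row mgt17 rose by 2.77 ± 0.42 (adjusted p = 1.74e-07, edgeR). It stood at 38.3, 99.8, 46.6 and 5.51 CPM in ovary, 3 high libraries and 1 in the range of other tissues. Over the 22 mitochondrial transfer RNAs the median log2 fold change was -1.44. Leaving out any 1 ovary library left 18 to 20 of the 37 rows called.

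Lantern muscle had 4 rows higher and none lower (6.97% of all genes were higher and 2.65% lower). The transfer RNA mgt19 rose by 3.19 ± 0.50 (adjusted p = 5.54e-06, edgeR). Its lantern muscle libraries held 366, 388, 1638 and 62.5 CPM, and the fourth of them lay inside the range of other tissues. The first pair of the run, mgt02 and mgt03, rose by 2.04 ± 0.35 and 2.08 ± 0.37 (adjusted p = 4.31e-05 and 5.96e-05, edgeR). Replicates 1, 2 and 3 held 765, 1124 and 1177 counts of mgt02, and 432, 680 and 666 of mgt03. Replicate 4, with 28660000 gene counts, held 71 and 39 and did not share the rise. Both calls held whichever lantern muscle library was left out. The shorter ribosomal RNA rose by 1.25 ± 0.40 (adjusted p = 0.0336, edgeR). This last call was lost without lantern muscle replicate 1 or 3 (adjusted p = 0.285 and 0.172, edgeR), with DESeq2 size factors or the DESeq2 Wald test, and with a replicate block (adjusted p = 0.0535, edgeR). The longer one had a log2 fold change of 1.05 ± 0.37 and an adjusted p of 0.0546 (edgeR), and did not pass. All 22 mitochondrial transfer RNAs had positive log2 fold changes with a median of 0.89, beside 0.02 for all genes.

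Gut gave the longest list of higher rows, and that list depended on how libraries were scaled. With trimmed mean scaling 15 rows were higher and none lower: the shorter ribosomal RNA, 12 mitochondrial transfer RNAs and 2 symbols (18% of all genes were higher and 14.4% lower). With raw library totals, tried after the data had been seen, none of the 37 was called. The trimmed mean scaling raised the mean ribosomal RNA share of gut from 0.785% to 1.41% of an effective library and its transfer RNA share from 0.199% to 0.366%. The leading row was mgt18, which rose by 2.22 ± 0.58 (adjusted p = 0.00198, edgeR) with trimmed mean scaling and had a log2 fold change of 1.41 (adjusted p = 0.0563, edgeR) with raw totals. Its gut libraries held 311, 180, 1505 and 366 CPM, and the third stood far above the others. Without gut replicate 3, 9 rows were called, and mgt18 was not among them.

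Esophagus had 8 rows higher and none lower (12.4% of all genes were higher and 3.98% lower), made of mgt05 to mgt10, mgt20 and the glycine symbol TRNAG-UCC. These calls depended on replicate 3: mgt09 held 191 CPM there and 11.9 to 19.5 CPM in the other 3 libraries, and no row was called without it. Esophagus replicate 3 was also the shallowest of all 64 libraries, with 13113913 counts. Raw library totals left 1 row called, a fit without the adult ovary 2. In eggs 1 row was higher, mgt04, by 1.49 ± 0.50 (adjusted p = 0.0194, edgeR), and none lower (19.5% of all genes were higher and 8.1% lower). Its egg libraries held 2.03, 63.1, 52.8 and 30.9 CPM, so replicate 1 was low. The egg count was 4 without replicate 1, 0 without replicate 2 or 3, and 2 without replicate 4, and raw totals gave 2 rows, both lower.

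In interambulacral plates 1 transfer RNA symbol was higher, and 1 mitochondrial row lower. The glutamate symbol TRNAE-UUC stood at 3.10, 2.82, 1.28 and 0.604 CPM in the plates, and its mean of 1.95 CPM ± 1.2 (SD, n = 4) was 17 times the mean of the other 13 type means (adjusted p = 2.10e-06, edgeR). All 4 plate libraries lay above the highest mean of those 13 types, 0.460 CPM in peristomial membrane, where this symbol also rose (adjusted p = 0.0148, edgeR). That peristomial call was lost without its replicate 2 or 3, without adult ovary and with the DESeq2 Wald test. White spine, outside those types, held 11 counts of 17506035, a higher level than plates replicate 4 with 15 of 24849127. The mitochondrial row mgt18 fell by 2.81 on the log2 scale in the plates, with an SE of 0.92 (adjusted p = 0.0261, edgeR). Of all genes 14% were higher and 2% lower in this type. The call of mgt18 was lost whichever plate library was left out (adjusted p up to 0.0912, edgeR), and that of TRNAE-UUC held in all 4 cases.

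**Figure D4:**
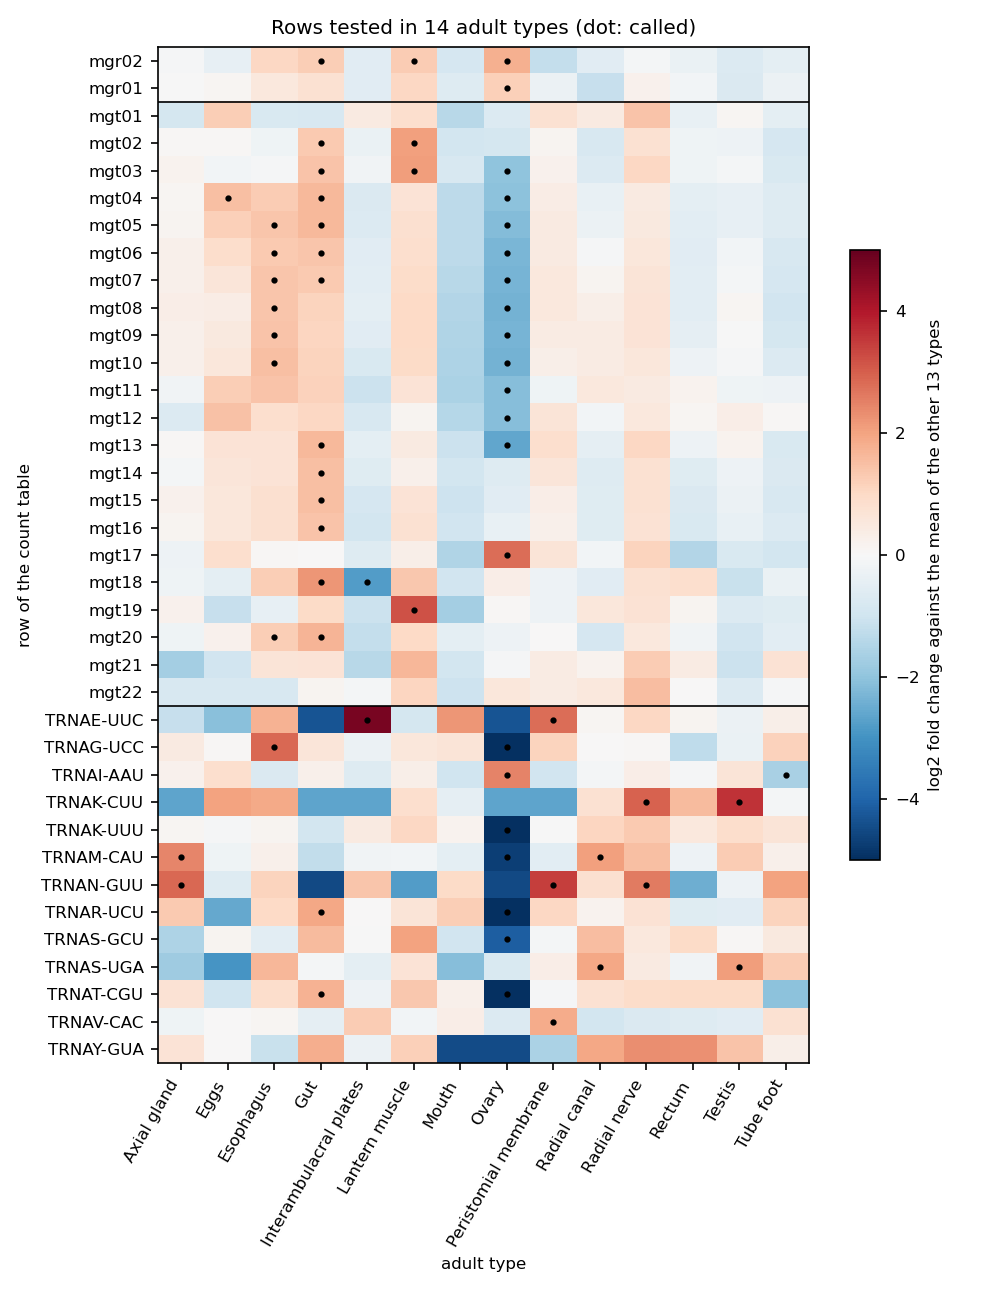
Log2 fold change of the 37 tested rows in each of 14 adult types against the mean of the other 13, from red (higher) to blue (lower), with colours saturating at ± 5 and dots at called rows. Ovary shows 17 lower rows and 4 higher ones, the gut column shows 15 higher rows that depend on the library scaling, and symbol rows at 0 in a type show fitted values that depend on the small count added in the fit.

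The other adult types had few called rows. Peristomial membrane had 3 symbols higher and none lower (12.1% of all genes were higher and 3% lower). Axial gland had 2 higher and none lower (12.4% and 1.24%), as did radial canal (12.9% and 4.82%), radial nerve (8.39% and 1.23%) and testis (18.5% and 6.01%). All of these were transfer RNA symbols and none of the mitochondrial rows was called there. Tube foot had 1 symbol lower and none higher (4.42% and 16.1%), and mouth and rectum had no row called by edgeR, with 3 and 2 rows at an unadjusted p under 0.05 (mouth: 9.24% of all genes higher and 1.2% lower, rectum: 11.9% and 3.07%). The DESeq2 Wald test also called none in mouth and rectum. All 22 mitochondrial transfer RNAs had negative log2 fold changes in mouth, with a median of -1.31, and all 22 had positive ones in radial nerve, with a median of 0.72.

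Single libraries moved these small counts. Peristomial membrane had no call without replicate 2 and 1 without replicate 3. Axial gland had 1 without replicate 1 or without replicate 2. Radial canal had none without replicate 4 and 1 without replicate 1 or 2. Radial nerve had 6 without replicate 1 and none without replicate 2, and testis had 1 without replicate 4. Tube foot had 7 without replicate 4 and none without replicate 1 or 2, and rectum had 1 without replicate 1.

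Eggs were set against the ovary that makes them in a fit of their 8 libraries alone. Of 26 rows tested, 9 were higher and 1 lower in eggs (27.5% of all 16877 genes tested were higher and 22.3% lower). The 9 were again neighbours of the run, mgt04 to mgt11 and mgt13, by log2 fold changes of 2.49 to 3.24. The row mgt07 rose by 2.66 ± 0.68 (adjusted p = 0.00884, edgeR). Of the 9, mgt06 to mgt09 and mgt13 were called whichever library was left out, and mgt11 in 2 of 8 such fits. The shorter ribosomal RNA fell by 2.01 on the log2 scale, with an SE of 0.58 (adjusted p = 0.0149, edgeR), a call lost without eggs replicate 2 (adjusted p = 0.0532, edgeR). The longer one had a log2 fold change of -0.98 ± 0.59 and did not pass (adjusted p = 0.185, edgeR). Over the 22 mitochondrial transfer RNAs the median was 1.81, beside 0.32 for all genes. Without eggs replicate 2 or eggs replicate 3, 6 rows were called.

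Testis was set against ovary in the same way. Of 26 rows tested, 7 were higher and 3 lower in testis (32.3% of all 17715 genes tested were higher and 23.5% lower). The higher rows were mgt03, mgt06 to mgt10 and mgt13, and each of these calls was lost without at least 1 of the 8 libraries. The row mgt03 kept its call in 1 of those 8 fits and lost it with a replicate block and without a filter (adjusted p up to 0.134, edgeR). The lower ones were both ribosomal RNAs, which fell by 2.27 (shorter, SE 0.44, adjusted p = 0.00178, edgeR) and 1.76 (longer, SE 0.36, adjusted p = 0.00223, edgeR) on the log2 scale, and mgt17, which fell by 3.33 (SE 0.75, adjusted p = 0.00384, edgeR). Testis libraries held 6.91, 5.29, 6.97 and 12.4 CPM of mgt17, near the lowest ovary library and below the other 3. The count was 4 without testis replicate 3 and 6 without testis replicate 2, ovary replicate 1 or ovary replicate 2. Both comparisons share the ovary libraries, so their values are not independent of each other.

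Juvenile indeterminate gonad against adult testis had no called row among 27 tested, and 0% of all 20521 genes tested were called by edgeR, so the count says nothing particular to these rows. At an unadjusted p under 0.05 there were 9 rows, and the DESeq2 Wald test called 4, of which 1 was higher and 3 lower. All 22 mitochondrial transfer RNAs had negative log2 fold changes, with a median of -1.11. The longer ribosomal RNA had a log2 fold change of 2.17 ± 0.63 (adjusted p = 0.173, edgeR) and the shorter one of 1.90 ± 1.23 (adjusted p = 0.501, edgeR). The shorter one stood at 12526 CPM in indeterminate replicate 3. In replicates 1 and 2 it stood at 259 and 293 CPM, below every testis library (696 to 2345 CPM). Leaving out any 1 library left the count at 0, and the provider difference stands beside all these values.

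The 50 transfer RNA symbols held few reads. RefSeq lists 963 gene copies under these 50 symbols, from 1 to 40 copies each, and the count table has 1 row per symbol, so copies cannot be separated. Over 64 libraries 2 symbols had no count at all (TRNAD-AUC and TRNAC-ACA), 36 had fewer than 100 counts in total and 19 reached 10 counts in no library. A count of 0 in a library allows up to 0.0504 to 0.229 CPM, depending on its depth. A library had a median of 4 symbols with at least 10 counts. The rank correlation of a symbol's total count with its number of RefSeq copies was 0.581 (Spearman, across 50 symbols that share all libraries, as a description).

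The arginine symbol TRNAR-UCU, the valine symbol TRNAV-CAC and the isoleucine symbol TRNAI-AAU together held 65.0% of the counts of all 50. Summed over the 50, type means ran from 3.87 CPM ± 0.675 in eggs (SD, n = 4) to 10.8 CPM ± 3.69 in peristomial membrane (SD, n = 3), with stage 1 ovary at 2.25 CPM. Neighbouring means in that order differed by less than the larger of their SDs. In ovary 2 symbols reached 10 counts in each of the 4 libraries, and these were TRNAV-CAC and TRNAI-AAU. The juvenile testis library and replicate 4 of adult testis reached that level in 10 symbols, the most of any library.

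Ovary separated the leading symbols. TRNAI-AAU stood at 1.37, 5.25, 5.47 and 3.05 CPM in ovary, and its mean of 3.78 CPM ± 1.94 (SD, n = 4) was the highest of the adult types, a log2 fold change of 2.50 ± 0.36 against the other 13 (adjusted p = 7.21e-08, edgeR). Testis followed with a mean of 1.81 CPM, and indeterminate gonad held 3.92, 4.55 and 1.11 CPM. Stage 1 ovary held 63 counts of 59521125 and juvenile ovary 44 of 34624033, both lower levels than in any of the 4 ovary libraries. In tube foot TRNAI-AAU fell to a mean of 0.359 CPM ± 0.257 (SD, n = 4), with an adjusted p of 0.0229 (edgeR). This call was lost with raw library totals (adjusted p = 0.0744, edgeR) and without tube foot replicate 1, 2 or 4 (adjusted p up to 0.122, edgeR).

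TRNAR-UCU behaved the other way in ovary. It had 4 counts in the 4 ovary libraries together, and the mean of the other 13 type means, 1.89 CPM, was 66.9 times the pooled ovary level (95% exact Poisson interval of the ratio 26.1 to 246, for counting error only; adjusted p = 0.000666, edgeR). Eggs were also low, with 0.212, 0.101, 0.403 and 0.0391 CPM. Within several tissues the libraries split, such as esophagus with 0, 4.08, 3.36 and 0 CPM.

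A further 5 symbols were lower in ovary, where all 4 libraries had 0 counts of each. Against a floor of 3 counts over the 4 ovary libraries, the mean of the other types was at least 12.2-fold higher for TRNAG-UCC (adjusted p = 0.00122, edgeR), at least 9.23-fold higher for the lysine symbol TRNAK-UUU and at least 4.31-fold higher for the serine symbol TRNAS-GCU. The call of TRNAS-GCU was lost whichever ovary library was left out and with the DESeq2 Wald test (adjusted p up to 0.0797). The remaining 2 were TRNAM-CAU, the methionine symbol, at least 7.34-fold, and TRNAT-CGU, a threonine symbol, at least 8.77-fold. The levels involved were low, between 0.0914 and 0.260 CPM for the mean of the other types.

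TRNAV-CAC had its highest mean among the replicated adult types in peristomial membrane. It was called higher there, but the call was lost without peristomial membrane replicate 2 or 3 (adjusted p up to 0.239, edgeR). In peristomial membrane it held 3.14, 7.0 and 5.44 CPM, and its mean of 5.19 CPM ± 1.94 (SD, n = 3) was 3.35 times that of the other types (adjusted p = 0.0108, edgeR). Interambulacral plates came second with 3.07, 2.56, 4.79 and 6.36 CPM, and tube foot held 4.02, 2.31, 4.07 and 1.64 CPM. The plates and tube foot did not pass the test for this symbol. Among the single spine libraries, green spine held 3.59, white spine 3.14, red spine 0.541 and mixed color spines 0.475 CPM, on both sides of the 64-library median of 1.21 CPM.

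Other called symbols rested on few reads. The asparagine symbol TRNAN-GUU was higher in axial gland, peristomial membrane and radial nerve, with 51, 55 and 42 counts in all their libraries together. In peristomial membrane and radial nerve, replicate 2 held 40 and 38 of these counts, and each call was lost without replicate 2. In axial gland replicate 2 TRNAN-GUU stood at 1.58 CPM against at most 0.107 CPM in the other 3, and without that library its log2 fold change turned to -0.88. The lysine symbol TRNAK-CUU was higher in testis, with 0, 0.718, 0.410 and 0.214 CPM and 32 counts in all (adjusted p = 0.00260, edgeR). That call was lost with another test (adjusted p = 0.450, DESeq2 Wald test). TRNAK-CUU was also higher in radial nerve, with 15 counts in all, of which replicate 2 held 13. The radial nerve call was lost without replicate 2. TRNAM-CAU was higher in axial gland and radial canal, TRNAS-UGA in radial canal and testis, and TRNAG-UCC in esophagus. Each of these calls was lost without at least 1 library of its type. For TRNAM-CAU these were axial gland replicate 1 and radial canal replicate 4. For TRNAS-UGA they were radial canal replicate 1, 2 or 4 and testis replicate 4, and for TRNAG-UCC esophagus replicate 3.

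**Figure D5:**
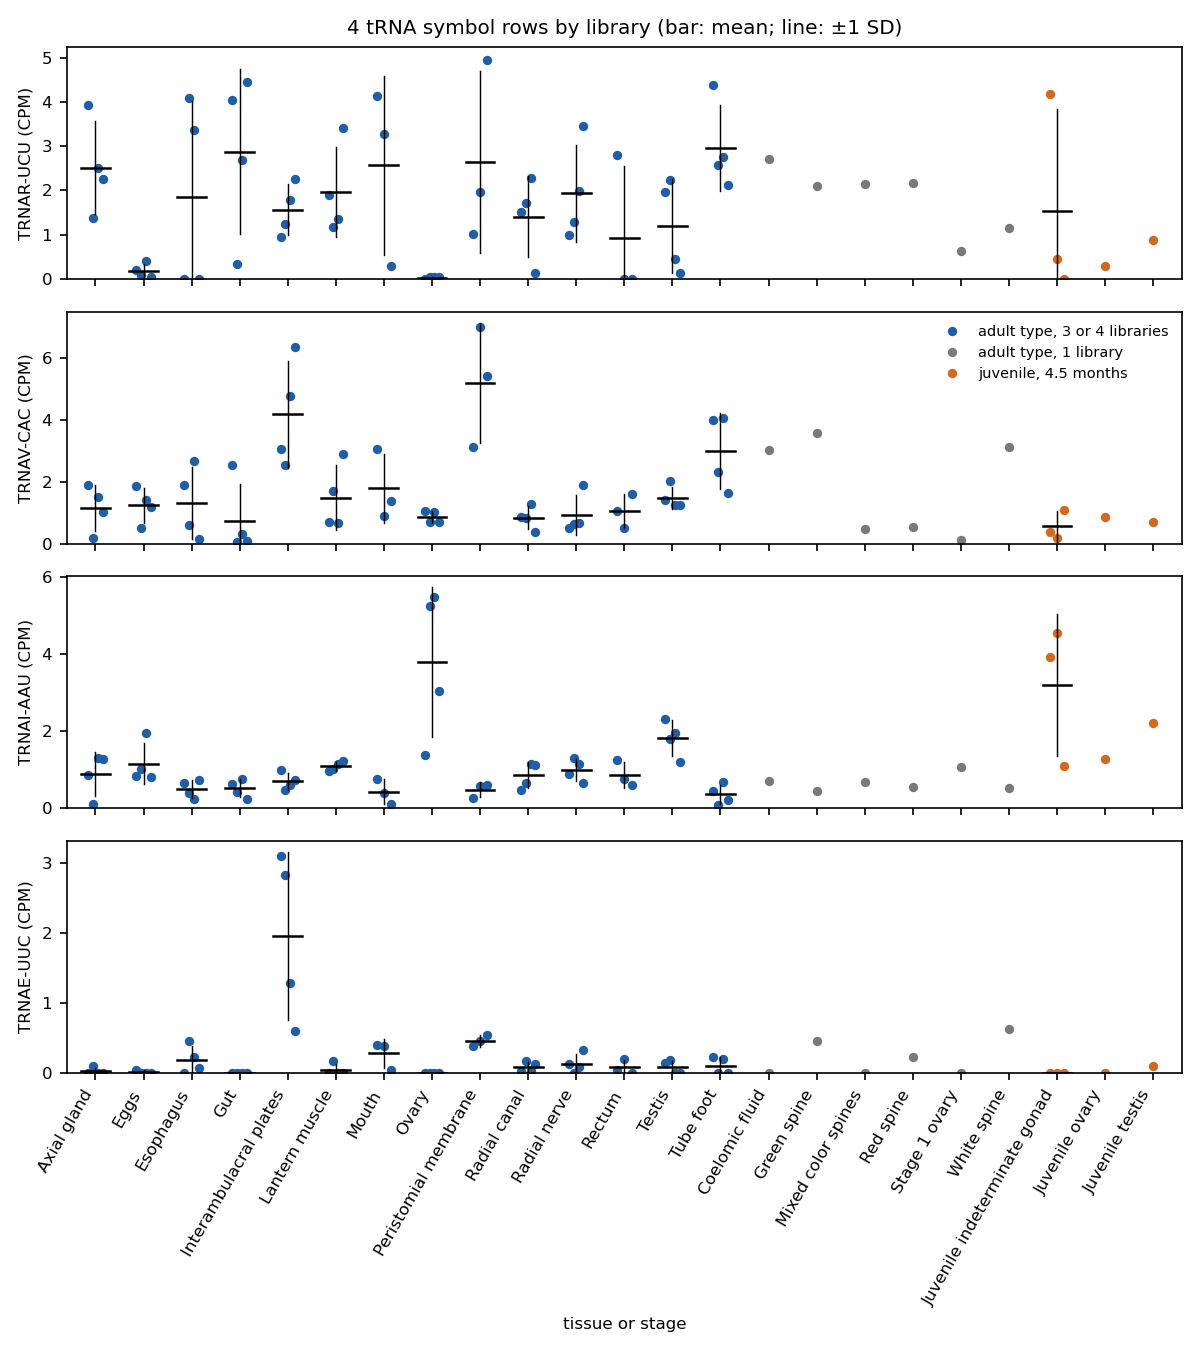
CPM of TRNAR-UCU, TRNAV-CAC, TRNAI-AAU and TRNAE-UUC in each library by tissue or stage, with points for libraries, bars for means and lines for ± 1 SD. TRNAI-AAU is highest among adult types in ovary, where TRNAR-UCU is at most 0.0441, and TRNAE-UUC reaches 0.604 to 3.10 CPM in the interambulacral plates.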

How the data were processed

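Bulk poly(A) RNA libraries of 64 samples were analysed from 1 deposited table of raw read counts per gene. The submitters' processing notes list STAR, featureCounts and DESeq2. The sources used here do not give the build, the strand setting or the treatment of reads with several locations. The deposited counts are whole and were not normalized by the authors. Before use, 3 lines with merged identifiers or displaced cells were left out, which left 25887 genes; the table had 0 columns of no sample and 0 pairs of identical libraries. The 74 rows and all lists were chosen with earlier results of these data known. Library totals of 13113913 to 59521125 counts set the precision, given as 95% Wilson intervals for shares. Shares and CPM use library totals.

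Tests used edgeR 4.0.16 in R 4.3.3: trimmed mean of M-values (TMM) scaling, filterByExpr, a trended dispersion, glmQLFit and glmQLFTest, with Benjamini-Hochberg adjustment over all genes tested, on the type as the only term. A call needed both an adjusted p below 0.05 and a log2 fold change of 1 or more in size. SE is the size of the log2 fold change over the square root of F. Procedures were tested on simulated data with a fixed dispersion and changes set only in well-counted genes. That simulation does not cover rows as low as the transfer RNA symbols. Alternatives were DESeq2 1.42.0 size factors and Wald test, no filter, a replicate block, totals without mitochondrial rows, raw library totals, no minimum fold change, no adult ovary, and each replicate left out in turn; fits that leave out a library reuse the dispersion trend and genes of the full fit. Named rows were both ribosomal RNAs, the 5 rows with the highest median and the 5 with the largest spread of type means in each transfer RNA group, and the row with the largest called change per type; others named fill short lists or were chosen after their values were seen. RefSeq (Lvar_3.0) served for names, biotypes, copy numbers, relative length and gene order, since the files name no build. Adult and juvenile libraries form the only batch in the labels; the juvenile types are in 1 batch, so no within-batch value exists. No sequences are shown.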

Additional observations from a re-analysis of the deposited data

Results flagged for a closer look

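A library was singled out where, in a group of 4, its gap to the nearest other library was larger, against the group's whole range, than Dixon's 95% critical value. For independent values from a normal distribution, chance alone gives about 1 such group in 20. The groups here share libraries and rows, and normality was not tested, so the numbers below cannot be weighed against that rate. Of 77 groups of summed shares, ratios and ribosomal RNA levels 7 were singled out, and of 165 groups of the named transfer RNA rows with at least 10 counts in the highest library 28. Axial gland replicate 1 was high in the ribosomal RNA share, at 1.5% against at most 0.50% in the others, with the shorter RNA at 3180 CPM and the longer at 11841 CPM. Interambulacral plates replicate 4 was high in the shares of ribosomal RNA (1.03%) and mitochondrial transfer RNA (0.113%), and in mgt04 (24.3 CPM), mgt09 (43.8 CPM), mgt10 (26.5 CPM) and mgt19 (107 CPM). Tube foot replicate 4 was high in the transfer RNA share (0.203%), in the longer ribosomal RNA (10889 CPM), and in mgt04 (24.5 CPM), mgt05 (43.2 CPM), mgt09 (36.2 CPM), mgt10 (35.7 CPM), mgt17 (12.7 CPM), mgt19 (148 CPM) and mgt20 (823 CPM). Esophagus replicate 3 was high in mgt04 (87.0 CPM), mgt05 (170 CPM), mgt09 (191 CPM), mgt10 (144 CPM) and mgt17 (17.8 CPM).

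The other libraries were singled out in 1 or 2 rows each. Ovary replicate 3 was high in mgt09 (15.8 CPM) and mgt10 (13 CPM), gut replicate 3 in mgt18 (1505 CPM), and gut replicate 1 in TRNAV-CAC (2.53 CPM). The row mgt19 was high in radial canal replicate 1 (228 CPM) and testis replicate 4 (198 CPM). TRNAI-AAU was high in eggs replicate 3 (1.96 CPM) and TRNAK-CUU in eggs replicate 1 (0.283 CPM). Radial nerve replicate 2 was high in TRNAK-CUU (0.468 CPM) and TRNAN-GUU (1.37 CPM), and radial nerve replicate 4 in TRNAV-CAC (1.89 CPM). TRNAN-GUU was high in axial gland replicate 2 (1.58 CPM).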

How the results depend on the processing

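Of 83 called pairs of row and comparison, 30 were called under every alternative run and 75 kept their direction under every one. In ovary 18 of 21 calls held throughout, in lantern muscle 3 of 4, in eggs against ovary 5 of 10, in testis against ovary 3 of 10, and in gut 0 of 15. The causes of the changes below were not tested, except that the unfiltered fits test more rows.

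Without the adult ovary, 16 rows differed among types, and called rows numbered 0 in axial gland, 4 in eggs, 2 in esophagus, 1 in radial canal and 0 in radial nerve. Raw library totals, chosen after seeing the data, gave 2 in eggs, 1 in esophagus, 0 in gut, 1 in radial nerve and 4 in testis, and turned the longer ribosomal RNA in gut to a log2 fold change of -0.077. Without a filter the counts were 4 in axial gland, 7 in eggs, 14 in lantern muscle, 10 in radial canal, 6 in radial nerve, 2 in rectum, 14 in testis, 6 in tube foot and 16 in testis against ovary. DESeq2 size factors gave 2 in eggs. The DESeq2 Wald test gave 0 in axial gland, 2 in eggs, 1 in peristomial membrane, 1 in radial canal, 0 in radial nerve, 1 in testis and 4 in indeterminate gonad against testis.

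A replicate block gave 1 in axial gland, 2 in eggs, 1 in esophagus, 1 in radial canal, 0 in radial nerve and 1 in testis. By the criterion that every pair correlate over 0.1, replicate numbers were not taken as pairs. The median correlation of same-numbered deviations over the adult types was 0.00114, 14 of 53 libraries correlated best with their own number. Eggs and ovary came closest: 3 of 4 same-numbered pairs lay over 0.1 (median 0.305), against 0 of 12 with other numbers (median -0.0996), and the block gave 13 called rows there, against 10 without it.

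Leaving out 1 replicate gave 8 to 29 rows differing among types. Called rows ranged from 1 to 2 in axial gland, 0 to 4 in eggs, 0 to 11 in esophagus, 9 to 14 in gut, 1 to 1 in interambulacral plates, 3 to 5 in lantern muscle, 18 to 20 in ovary, 0 to 3 in peristomial membrane, 0 to 2 in radial canal, 0 to 6 in radial nerve, 0 to 1 in rectum, 1 to 2 in testis, 0 to 7 in tube foot, 6 to 11 in eggs against ovary and 4 to 11 in testis against ovary. On the log2 scale TRNAN-GUU in axial gland ranged from -0.876 (without replicate 2) to 3.30, and mgr02 in esophagus from -0.0297 (without replicate 3) to 1.36.

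As shares of the TMM effective library, ribosomal RNA was 1.41% in gut and 0.50% in testis, and mitochondrial transfer RNA 0.366% in gut and 0.0796% in testis. The 50 symbols summed to 4.82 CPM in eggs, 9.02 in gut, 7.82 in interambulacral plates and 6.09 in testis. A median of 15.5 symbols had at least 1 count, against 4 with at least 10. Of the 50 symbols 13 had enough counts for the atlas test. The deepest library, stage 1 ovary, had 2 symbols with at least 10 counts, and why symbol counts are low was not tested.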
